A study of Rattus norvegicus with 32 samples.

Results

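The rat mitochondrial genome carries 37 genes, and all 37 were in the table of 34101 rows, chosen as the rows whose chromosome is MT. They are 13 protein-coding genes, 2 rRNA genes and 22 tRNA genes. Polyadenylated RNA of rat livers was sequenced in a study of transplants with macrosteatosis, in which hepatocytes store fat as large droplets. All 3 groups are livers of male rats of the inbred Lewis strain: livers before transplantation (12 labelled, 11 used), livers after transplantation (12 labelled, 11 used) and livers of long-term survivors (8 labelled, 8 used). Fat content, age, treatment arm and sampling time are not in the labels. Nor do they tie libraries to separate animals, and p-values thus cover only the spread from library to library, some of which may be technical. Replicate numbers only name a library and pair nothing.

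The mitochondrial genome is a small circle of DNA present in many copies per cell. Its mRNAs encode core subunits of the respiratory chain and of ATP synthase, while its rRNAs and tRNAs serve the ribosome inside the organelle. Both strands are transcribed by the RNA polymerase Polrmt into long precursors that are cut at the tRNAs, and most of the mRNAs and rRNAs then receive short poly(A) tails. All other respiratory chain subunits, including the whole of complex II, are encoded in the nucleus and imported. Liver is rich in mitochondria, most of them in hepatocytes.

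Libraries held 15372950 to 19311664 reads on genes before transplantation, 15802817 to 18464388 after it and 17401155 to 18482059 in long-term survivors. Long-term survivor replicates 3 and 7, and replicates 4 and 8, were near copies of each other, so the calls on mRNAs and the counts that change with each pair averaged are also given. Pre-transplant replicates u1 and u2 came from columns that share 1 header. The libraries nearest the other group were replicate 9 after transplantation and replicate u2 before it. No label names a processing run. In long-term survivor libraries 3.29% to 5.02% of the values for unannotated gene models were whole reads, against all values in the other groups. This points to a separate processing run for the long-term survivor libraries, and such a run and the group cannot be told apart.

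Mitochondrial genes took a median of 6.20% of all reads before transplantation, 4.57% after it and 8.26% in long-term survivors. The lowest and highest shares were 5.44% and 7.53% before transplantation (6.39% ± 0.62, SD, n = 11). They were 3.98% and 6.49% after transplantation (4.80% ± 0.81, SD, n = 11), and 7.17% and 9.58% in long-term survivors (8.27% ± 0.79, SD, n = 8). After transplantation, 9 of 11 libraries lay below every pre-transplant library, and replicates 4 (6.49%) and 9 (6.18%) lay within the pre-transplant range. The long-term survivor group lay wholly above the post-transplant group. It overlapped the pre-transplant group only through long-term survivor replicate 2 (7.17%) and pre-transplant replicates 1 (7.53%) and 2 (7.22%). These shares describe the libraries and carry no test.

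**Figure D1:**
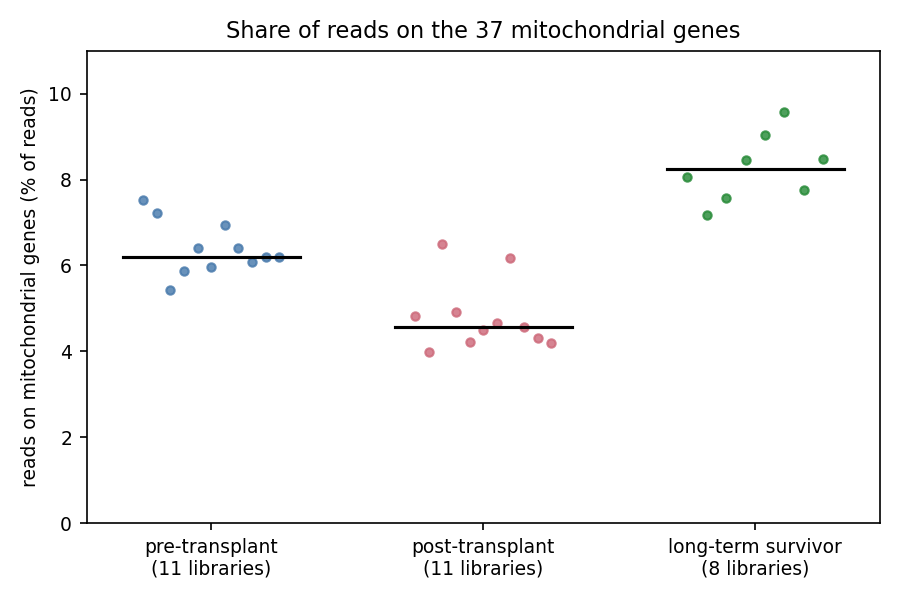
Share of reads on the 37 mitochondrial genes (vertical axis, percent of reads on all Ensembl genes) in each library, with 1 point per library and a black line at the group median. The medians are 6.20%, 4.57% and 8.26%, and the long-term survivor points lie above all post-transplant points.

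Protein-coding genes held 98.2% to 99.3% of the mitochondrial reads of a library. The rRNA genes held 0.618% to 1.64% and the tRNA genes 0.0880% to 0.290%. Both of these classes are read here only as far as they enter polyadenylated RNA. Mt-co1, the catalytic subunit of cytochrome c oxidase (complex IV), alone held 33.9% to 41.4% of the mitochondrial reads.

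The order of the mRNA levels was nearly fixed over the 30 libraries. On the FPKM scale, which divides by gene length, the median over all libraries was 15939.5 for Mt-co1, 12223 for Mt-atp6 and 10327 for Mt-co3, which took ranks 1, 2 and 3 in every library. Mt-cyb (7569.8 FPKM) and Mt-nd1 (5821 FPKM) took ranks 4 and 5 and changed places between libraries. Mt-nd2 (4229 FPKM) was always at rank 6 and Mt-nd4l (2958 FPKM) always at rank 7. Below them the ranges crossed: Mt-nd3 had a median of 1850.2 FPKM, Mt-nd5 of 1633 FPKM, Mt-nd6 of 1071 FPKM and Mt-co2 of 751 FPKM. Mt-nd4 (313 FPKM) held rank 11 or 12, and Mt-atp8 (41.9 FPKM) was last in every library.

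Neighbouring genes share bases in this genome, so some reads cannot be given to 1 gene. Mt-atp8 and Mt-atp6, which encode the membrane subunits of ATP synthase made in the organelle, overlap by 43 bases, Mt-nd4l and Mt-nd4 by 7 bases, and Mt-nd5 and Mt-nd6 by 23 bases on opposite strands. Mt-atp6 and Mt-co3 share 1 base. Mt-atp8 and Mt-atp6 are read from 1 shared mRNA, yet the ratio of their FPKM (Mt-atp6 over Mt-atp8) ran from 189.9 to 419. Mt-nd4l and Mt-nd4 also come from 1 shared mRNA, and Mt-nd4l over Mt-nd4 ran from 4.78 to 10.9. How the authors treated reads that match several genes or several places is not given in the sources used here, nor is whether strand was used, so the levels of these overlapping genes are uncertain.

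**Figure D2:**
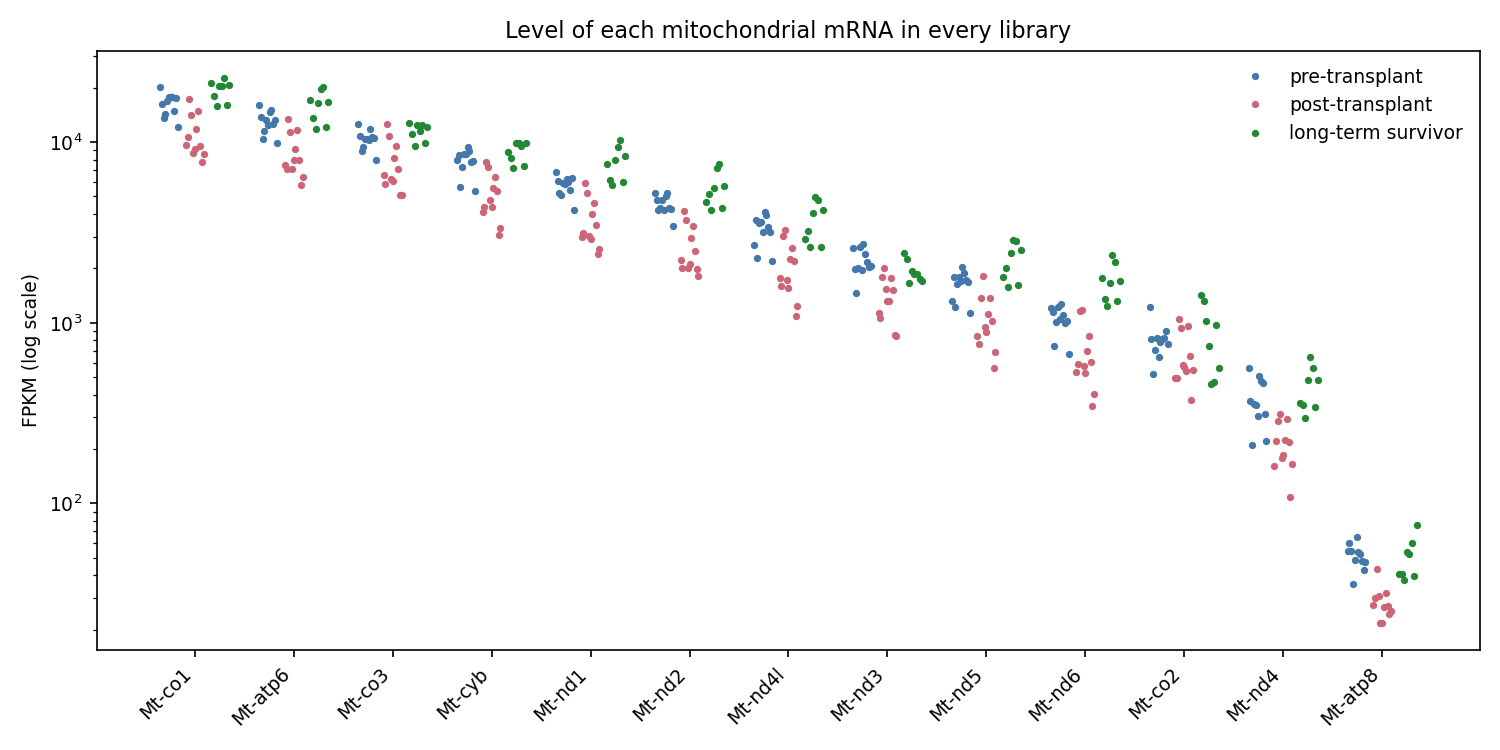
Level of the 13 mitochondrial mRNAs (vertical axis, FPKM on a log scale), ordered by the median over 30 libraries, with 1 point per library coloured by group. Mt-co1 is highest and Mt-atp8 lowest in every library, and the post-transplant points sit lowest within most genes.

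After transplantation, 12 of the 13 mitochondrial mRNAs fell and 0 rose (limma, adjusted p under 0.05), with log2 changes of -0.85 to -0.33 around a median of -0.70 over the 13. Over all 11924 genes tested, 26.6% were lower, 23.4% were higher, and the median change was -0.03. The ranges of the groups overlapped for all 13 genes, while 0.964% of all genes lay wholly below the pre-transplant group. With the libraries scaled by the nuclear respiratory chain genes, which fell too, 0 of the 13 mRNAs and 2 rRNAs were lower. Mt-co1, Mt-atp6 and Mt-co3 then stood at 0.04, 0.01 and 0.12. Under this scaling 8346 of all 11924 genes were higher and 590 lower, with a median change of 0.48, so these mRNAs stood below that median. In tissue RNA, fewer cells of a type and less RNA per cell cannot be told apart.

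Mt-co1 had 12182 FPKM in the lowest, 16849 in the median and 20130.3 in the highest pre-transplant library, and 7757, 9689 and 17288 FPKM after transplantation. In 8 of 11 post-transplant libraries it was below the whole pre-transplant range, and 1 was above the pre-transplant median. The log2 change was -0.58 ± 0.13 (SE; limma, adjusted p = 5.46e-04). Mt-co3, which forms part of the core of the same complex, changed by -0.50 ± 0.14 (limma, adjusted p = 0.00310), from a median of 10426 to 6608 FPKM. Mt-co2, which carries the copper site that takes electrons from cytochrome c, was the 1 mRNA that did not pass the test. Its FPKM was 522, 816 and 1225 (lowest, median, highest) before and 374, 569.8 and 1051 after transplantation, a log2 difference of -0.33 ± 0.20 (limma, adjusted p = 0.163). Of 11 post-transplant libraries, 3 were below the pre-transplant range of Mt-co2 and 3 were above its median.

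Complex I, which takes electrons from NADH, has 7 subunits made in the organelle, and all 7 fell. Mt-nd2 went from 3414, 4314 and 5209.6 FPKM (lowest, median, highest) to 1814, 2217 and 4142 FPKM. All 11 post-transplant libraries were below the pre-transplant median and 8 were below the whole range. Its log2 change was -0.83 ± 0.14 (limma, adjusted p = 2.05e-05). The others were Mt-nd4 at -0.80, Mt-nd4l at -0.74, Mt-nd5 at -0.71, Mt-nd1 and Mt-nd3 at -0.70 each and Mt-nd6 at -0.69, with adjusted p-values from limma of 1.48e-04 to 0.00186. Mt-nd6 is the 1 mRNA read from the other strand, and its change was of the same size as that of Mt-nd5, the gene it overlaps.

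Mt-cyb, the cytochrome b of complex III, changed by -0.64 ± 0.14 (limma, adjusted p = 5.32e-04), from a median of 7989.9 to 4804 FPKM, and was below the pre-transplant median in 11 of 11 libraries. Mt-atp6, which forms the proton channel of ATP synthase with a ring of nuclear-encoded subunits, had 9866, 13189.8 and 15974 FPKM before and 5801, 7925 and 13366 FPKM after transplantation. Of 11 libraries 8 were below the pre-transplant range of Mt-atp6 and 1 was above its median, with a log2 change of -0.62 ± 0.14 (limma, adjusted p = 6.56e-04). Mt-atp8, its partner subunit, had 115 to 211 reads (35.9 to 65.3 FPKM) before and 80 to 144 reads (21.9 to 43.5 FPKM) after transplantation. Its log2 change was -0.85 ± 0.12 (limma, adjusted p = 1.28e-06), and 10 of 11 libraries were below the pre-transplant range in FPKM.

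In FPKM, the fall was not of 1 size across the libraries. Post-transplant replicates 4, 5 and 9 were nearest to the pre-transplant level. Against the pre-transplant median of log2(FPKM + 1), Mt-co1 stood at 0.04 in replicate 4, -0.25 in replicate 5 and -0.19 in replicate 9, and at -1.12 in replicate 11. Mt-nd4 stood at -0.30, -0.18 and -0.27 in replicates 4, 5 and 9 and at -1.70 in replicate 11. The share of reads on mitochondrial genes in replicate 5 (4.91%) was nonetheless below the pre-transplant range. FPKM also divides by a library size, which was 0.7828 times the reads on genes in replicate 5 and 1.4104 times in replicate 11. Mt-co1 had 278992 of 16318278 reads in replicate 5 and 303109 of 17932046 in replicate 11, nearly equal shares. The FPKM of Mt-co1 in these libraries, 14137 and 7757, thus differed mostly through the library size. Sample titles run in consecutive sets, to which the labels give no meaning. Within titles M2 to M7 (3 pre- and 2 post-transplant libraries), the median log2 difference over the 13 mRNAs was -0.84, and 13 of 13 were lower. Within M8 to M13 (3 and 3 libraries) it was -0.33 with 12 of 13 lower, and within M21 to M26 (3 and 3) it was -1.18 with 13 of 13 lower. The post-transplant libraries lay wholly below the pre-transplant ones for 12, 1 and 13 of the 13 genes in these sets. With 2 or 3 libraries per group, separation needs little difference, and its share over all genes was not counted. These values are in FPKM. The median share of mitochondrial reads went from 7.22% to 4.40% in M2 to M7, 5.97% to 4.91% in M8 to M13 and 6.40% to 4.32% in M21 to M26. Titles M15 to M20 hold 3 post-transplant libraries and no pre-transplant library with a title of its own, so they give no value.

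**Figure D3:**
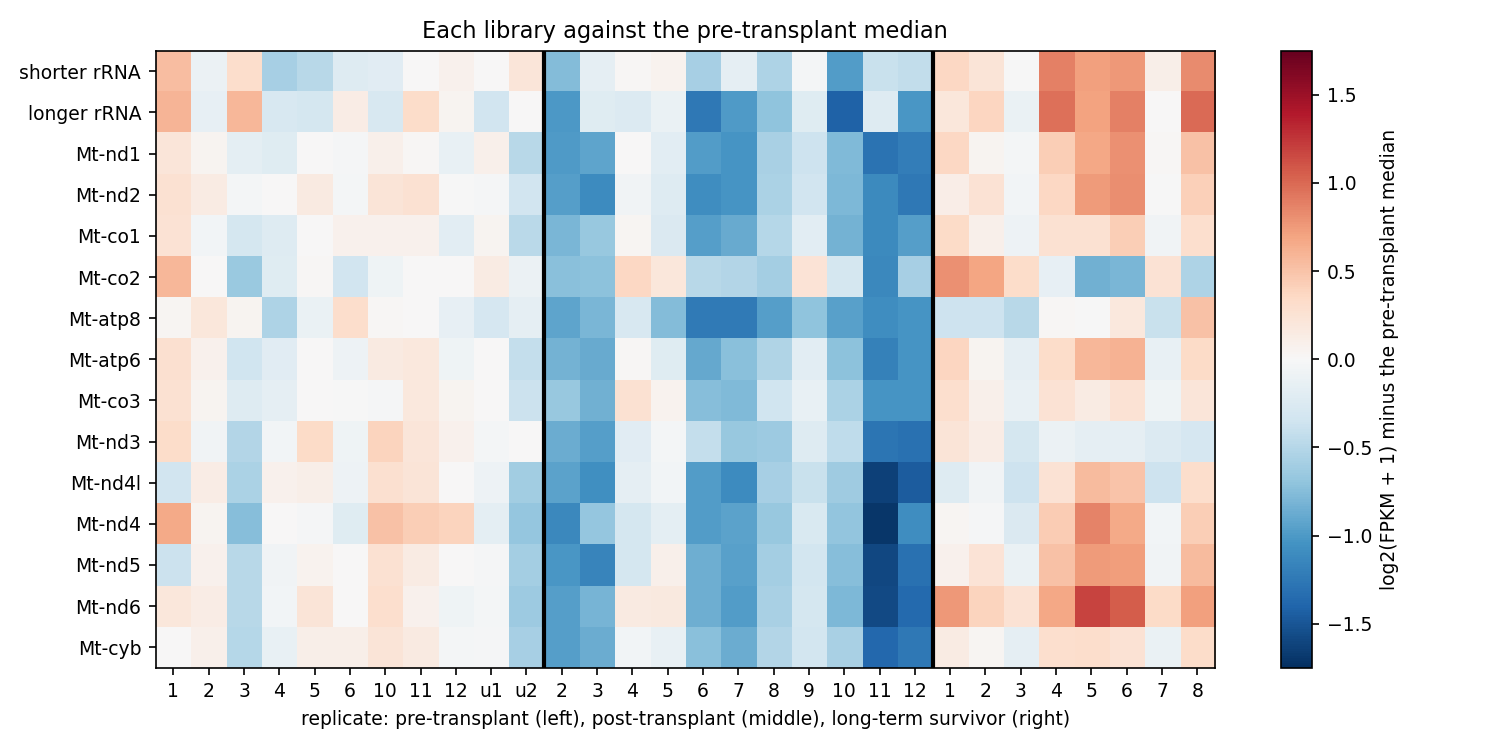
Level of each mitochondrial mRNA and rRNA (rows, in genome order) in each library (columns, 3 groups split by black lines), coloured by log2(FPKM + 1) minus the median of the pre-transplant libraries. Post-transplant replicates 11 and 12 are darkest blue, replicates 4, 5 and 9 are pale, and Mt-co2 runs against its neighbours in long-term survivor replicates 5, 6 and 8.

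Markers of cell types also differed between livers before and after transplantation. The summed FPKM of 12 hepatocyte markers was 53562 to 113374 (median 91789) before transplantation and 25617 to 88354 (median 43298) after it, and 6 of the 12 fell (4 lower and 3 higher when scaled by the nuclear respiratory chain genes). That scaling gave 8346 of all 11924 genes higher and 590 lower. Among the 6 that fell was Alb, the serum albumin gene (log2 change -1.23, limma, adjusted p = 4.87e-05). Alb was the largest part of the sum, with medians of 51319.9 FPKM before and 20743 FPKM after transplantation. The medians of Serpina1 (7079 and 7378 FPKM) and Apoa1 (1804 and 1881 FPKM) were not lower after it, and those of the other hepatocyte markers were. Post-transplant replicates 4, 5 and 9, the pale ones for the mitochondrial mRNAs, had the 3 highest sums of the group, 70159, 88354 and 68408. Replicate 5, with the highest sum, had a share of mitochondrial reads of 4.91%, below the pre-transplant range. The sums and the mRNA levels are both in FPKM and so share the library size of each library. The summed FPKM of 10 macrophage markers was 305 to 683 before and 952 to 2632 after transplantation, with 9 of 10 higher. That of 6 neutrophil markers was 2.08 to 8.59 before and 25.8 to 667 after, with 6 of 6 higher, and that of 7 stellate cell and fibroblast markers 29.1 to 76.6 before and 83.2 to 559 after, with 7 of 7 higher. None of the markers of these 4 types was at 0 in every library of a group. Their part in the fall of the mitochondrial mRNAs was not tested.

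Few mitochondrial mRNAs passed the test between long-term survivors and pre-transplant livers, with 2 of 13 higher, 0 lower and a median log2 difference of 0.25 over the 13. Over all genes tested, 3.85% were higher and 30.8% lower, with a median of -0.17. The ranges of the groups overlapped for all 13 mRNAs, and 0.403% of all genes lay wholly above the pre-transplant group. The 2 genes were Mt-nd6 and Mt-nd1, both of complex I. Mt-nd6 had 672, 1043 and 1277 FPKM (lowest, median, highest) before transplantation and 1240.0, 1691 and 2368 FPKM in long-term survivors. Of 8 long-term survivor libraries 7 were above every pre-transplant library, and the groups overlapped only through replicate 3. The log2 change was 0.70 ± 0.19 (SE; limma, adjusted p = 0.00592). In the 43 other settings and left-out libraries tried, its adjusted p was at most 0.0166.

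Mt-nd1 had 4219, 5919.8 and 6864 FPKM before transplantation and 5798, 7786 and 10265 FPKM in long-term survivors, with 5 of 8 above the pre-transplant range. Its log2 difference was 0.40 ± 0.16 (limma, adjusted p = 0.0482). This call is at the threshold: it was lost in 26 of 43 other settings and left-out libraries, with adjusted p-values up to 0.109, among them the averaging of the near copies (0.44, limma, adjusted p = 0.0636). The remaining 11 mRNAs did not pass the test, with log2 differences from -0.17 for Mt-nd3 to 0.42 for Mt-nd5 (limma, adjusted p = 0.0666 for Mt-nd5). Mt-co1 was 0.25 higher (limma, adjusted p = 0.175) and Mt-atp8 0.05 lower on the log2 scale (a difference of -0.05, limma, adjusted p = 0.778).

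How many mRNAs were called here depended on the scaling between libraries. As deposited, 3 of the 15 mRNAs and rRNAs were higher, and 459 of all genes were higher and 3675 lower. With median-of-ratios scaling, which moved the median of all genes from -0.17 to 0.00, 8 of the 15 were higher, and 1022 of all genes were higher and 1065 lower. Mt-co1 (0.47, limma, adjusted p = 0.0208), Mt-atp6 (0.50, limma, adjusted p = 0.0220), Mt-nd2 (0.49, limma, adjusted p = 0.0257) and Mt-nd5 (0.64, limma, adjusted p = 0.0128) were then among the calls. With the reads of nuclear genes as the library size, 9 of the 15 were higher, and 469 of all genes were higher and 1151 lower. No setting tried gave a lower call among the 15 in this comparison.

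Against the post-transplant group, 12 of 13 mRNAs were higher in long-term survivors and 0 lower, with a median log2 difference of 0.89 and a range of 0.35 to 1.39. Over all genes 10.5% were higher and 36.9% lower, and the median was -0.16. This comparison shares the post-transplant libraries with the one above, so it is no independent account of their low level. The ranges of Mt-nd2 and Mt-nd6 did not overlap between the groups, and 0.335% of all genes lay wholly above the post-transplant group. Mt-nd6 had 347, 591 and 1174 FPKM after transplantation against 1240.0, 1691 and 2368 FPKM, a log2 difference of 1.39 ± 0.19 (limma, adjusted p = 2.07e-06). Mt-nd2 had 4192, 5347 and 7573 FPKM in long-term survivors, a log2 difference of 1.10 ± 0.16 (limma, adjusted p = 2.45e-06). Mt-co2 again did not pass the test, at 0.35 ± 0.22 (limma, adjusted p = 0.176). Between these groups 6 of 12 hepatocyte markers were higher in long-term survivors, and 9 of 10 macrophage, 6 of 6 neutrophil and 7 of 7 stellate cell and fibroblast markers were lower. The summed FPKM in long-term survivors was 61120.4 to 101422 for the hepatocyte, 388 to 588 for the macrophage, 5.54 to 46.1 for the neutrophil and 40.4 to 65.9 for the stellate cell and fibroblast markers. Their part in these differences was not tested.

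**Figure D4:**
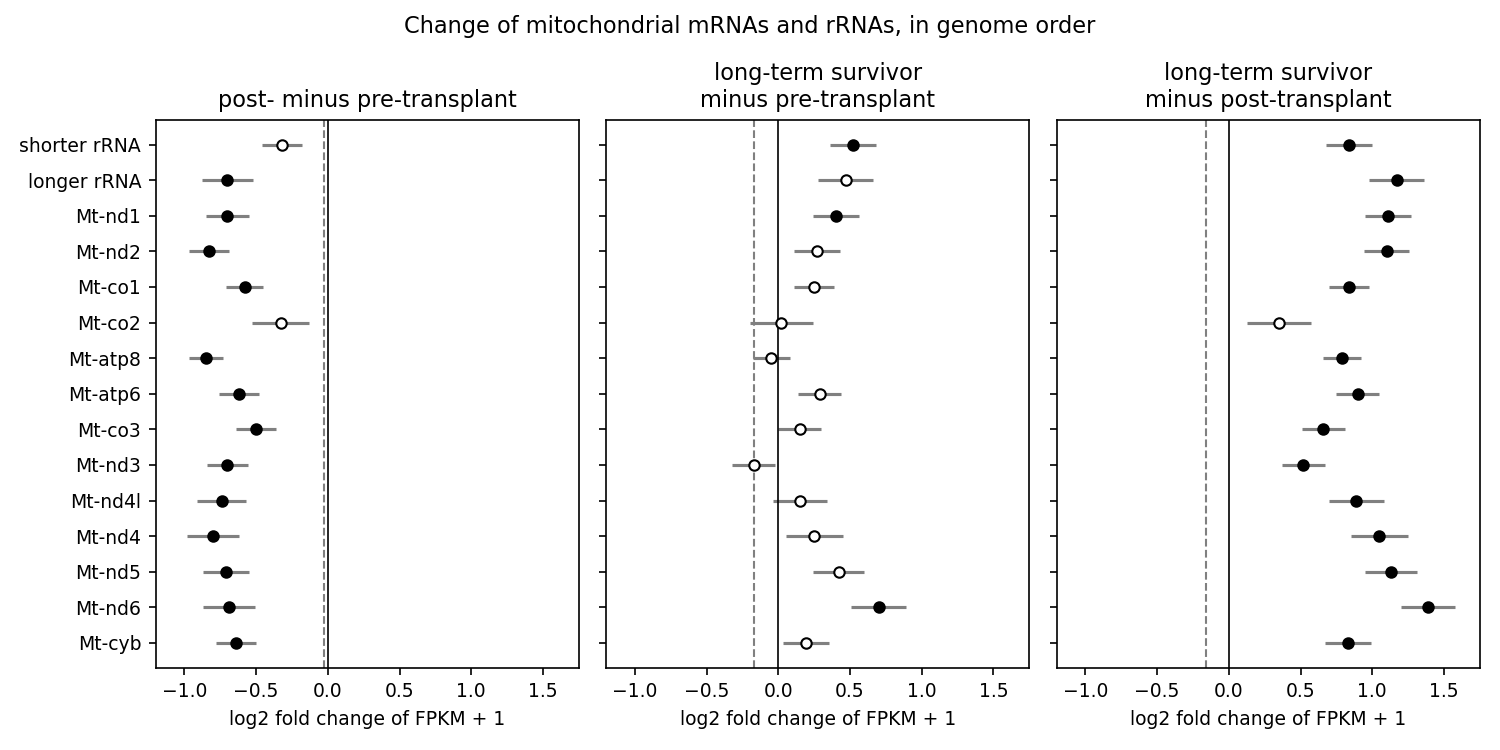
Log2 fold change of FPKM + 1 (horizontal axis) with its standard error for the 13 mRNAs and 2 rRNAs in genome order, in 3 comparisons. Filled points passed an adjusted p of 0.05, open points did not, and the dashed line marks the median change of all genes (-0.03, -0.17 and -0.16).

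Within the long-term survivor group, the highest FPKM of Mt-co2 was 3.11 times the lowest, against 1.34 to 2.20 times for the other 12 mRNAs. It had 1417, 1313, 1019.6 and 970.2 FPKM in replicates 1, 2, 3 and 7 and 740.2, 456, 468 and 562 FPKM in replicates 4, 5, 6 and 8. Replicates 4, 5, 6 and 8 were the ones with the higher levels of most other mitochondrial mRNAs: Mt-nd2 stood at 0.36, 0.74, 0.81 and 0.41 above the pre-transplant median of log2(FPKM + 1) there, and at 0.12, 0.26, -0.04 and 0.00 in replicates 1, 2, 3 and 7. The ratio of Mt-co2 to Mt-co1 was 0.0362 to 0.0626 before transplantation, 0.0453 to 0.0694 after it and 0.0207 to 0.0730 in long-term survivors. The lowest of these ratios were 0.0207 in replicate 6, 0.0224 in replicate 5 and 0.0271 in replicate 8. Replicates 3 and 7, and replicates 4 and 8, are the near copies named above. This pattern was seen in the values and is given as a description.

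Mt-nd6 was also set against its neighbour on the other strand. Whether strand was used in counting is not given, so the split of reads between these genes is uncertain. The ratio of Mt-nd6 to Mt-nd5 was 0.576 to 0.916 (median 0.613) before transplantation, 0.589 to 0.849 (median 0.617) after it and 0.676 to 0.983 (median 0.776) in long-term survivors. The groups overlapped through a few libraries, with pre-transplant replicate 1 at 0.916 and post-transplant replicate 4 at 0.849. Of the summed FPKM of the 13 mRNAs, Mt-nd6 took 1.34% to 1.74% before transplantation, 1.18% to 1.89% after it and 1.87% to 2.59% in long-term survivors.

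The 2 rRNA genes encode the RNAs of the small and large subunits of the organelle's ribosome. The shorter one (ENSRNOG00000030478, MT:68-1025, 958 bases) had 173, 259 and 377 FPKM before transplantation, 131, 198 and 271 FPKM after it and 257, 379 and 476 FPKM in long-term survivors. It differed by -0.32 ± 0.14 after transplantation (limma, adjusted p = 0.0703) and was 0.52 ± 0.16 higher in long-term survivors than before transplantation (limma, adjusted p = 0.0110). The longer one (ENSRNOG00000043866, MT:1094-2664, 1571 bases) had 184, 232 and 350.3 FPKM before, 86.3, 142 and 214 FPKM after transplantation and 214, 341 and 464 FPKM in long-term survivors. It fell by 0.70 on the log2 scale after transplantation (a change of -0.70 ± 0.18, limma, adjusted p = 0.00167), a call lost with quantile normalization (-0.26, limma, adjusted p = 0.204) and with scaling by the nuclear respiratory chain genes. It did not pass the test in long-term survivors (0.47 ± 0.19, limma, adjusted p = 0.0586), but passed it in 11 of 43 other settings and left-out libraries, among them median-of-ratios scaling (0.69, limma, adjusted p = 0.0134). The call on the shorter gene after transplantation appeared when pre-transplant replicate 4 or 5 or post-transplant replicate 4 or 5 was left out (adjusted p = 0.0350 to 0.0461 from limma). The ratio of the longer to the shorter was 0.710 to 1.15 before transplantation, 0.499 to 1.01 after it and 0.799 to 1.00 in long-term survivors. Both were higher in long-term survivors than after transplantation, with log2 differences of 0.84 and 1.17 (limma, adjusted p = 9.51e-05 and 2.08e-05).

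Of the 22 tRNA genes, 13 passed the filter on low values, 17 had at most 30 reads in every library and 2 had 0 reads in every library. The 5 with more than 30 reads in some library all lie on the minus strand, which holds 8 of the tRNA genes. The tRNA gene with most reads (ENSRNOG00000029145, MT:15348-15415) had 988, 1319 and 2272 reads before transplantation, 405, 523 and 987 after it and 725, 864 and 1394 in long-term survivors. Its FPKM was 856 to 2064 before transplantation, 304 to 883 after it and 501 to 1157 in long-term survivors. On the FPKM scale it was below the pre-transplant range in 10 of 11 post-transplant and 5 of 8 long-term survivor libraries, with log2 changes of -1.37 ± 0.20 (limma, adjusted p = 2.97e-06) and -0.73 ± 0.22 (limma, adjusted p = 0.0116). The tRNA gene beside Mt-nd6 (ENSRNOG00000032997, MT:14062-14130) had 61 to 123 reads before, 22 to 54 after transplantation and 19 to 78 in long-term survivors. Its log2 changes were -1.56 ± 0.23 after transplantation (limma, adjusted p = 2.45e-06) and -1.13 ± 0.25 in long-term survivors (limma, adjusted p = 9.56e-04).

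Of these neighbours on the minus strand, Mt-nd6 was higher in long-term survivors than before transplantation and the adjoining tRNA gene was lower. The FPKM of that tRNA gene over Mt-nd6 was 0.0486 to 0.103 before transplantation, 0.0237 to 0.0506 after it and 0.00956 to 0.0490 in long-term survivors. The other 3 tRNA genes with more than 30 reads (ENSRNOG00000032609 at MT:5081-5152, ENSRNOG00000031333 at MT:5185-5252 and ENSRNOG00000029954 at MT:5256-5321) fell after transplantation, with log2 changes of -0.85, -0.73 and -0.95 (limma, adjusted p = 7.24e-04, 0.00384 and 2.20e-04). In long-term survivors ENSRNOG00000029954 was lower (-1.17, limma, adjusted p = 1.68e-04), and the other differences were -0.51 and -0.24 (limma, adjusted p = 0.0663 and 0.431). Of the 13 tRNA genes that passed the filter, 8 were lower and 0 higher after transplantation, and 6 lower and 0 higher in long-term survivors, or 3 lower there with median-of-ratios scaling. Over all genes 26.6% and 30.8% were lower in these comparisons, and 1065 of 11924 in long-term survivors with median-of-ratios scaling. Only 5 of the 13 tRNA genes had more than 30 reads in any library, so calls on the rest were made on few reads. Among the rest, ENSRNOG00000029677 had at most 3 reads in a library. Coordinates are those of the deposited table. Rnor_6.0 and mm10 are the builds listed in the submitters' processing notes, with no role given for either.

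The nuclear partners of the mitochondrial subunits were lower in both groups than before transplantation, a direction that scaling by these same genes removes. The lists hold 69 matched nuclear subunits of complexes I, III, IV and V, of which 68 were tested. After transplantation 65 of 68 fell and 0 rose, with a median log2 change of -0.61, where 26.6% of all genes were lower. In long-term survivors 65 of 68 were lower than before transplantation and 0 higher, again with a median of -0.61 and against 30.8% of all genes, and both counts rest on the same pre-transplant libraries. Atp5f1b, the catalytic beta subunit of ATP synthase, had a mean of 1098 FPKM before transplantation, 643 after it (log2 change -0.79 ± 0.11, limma, adjusted p = 1.73e-06) and 656 in long-term survivors (-0.74 ± 0.12, limma, adjusted p = 5.00e-05). Cox4i1, a nuclear subunit of complex IV, went from 583 to 391 FPKM (-0.59 ± 0.10, limma, adjusted p = 1.84e-05) and stood at 393 FPKM in long-term survivors (-0.58 ± 0.11, limma, adjusted p = 1.97e-04). With complex II, 69 of 72 tested were lower in each comparison as deposited. After transplantation 44 were lower with quantile normalization, and in long-term survivors 38 were with quantile normalization and 37 with median-of-ratios scaling. Of all 11924 genes, 3563, 1067 and 1065 were lower in these settings, in that order. The 4 subunits of complex II, which has no part made in the organelle, all fell in both comparisons as deposited (1 of 4 in long-term survivors with median-of-ratios scaling). Its flavoprotein Sdha changed by -0.95 ± 0.11 after transplantation (limma, adjusted p = 1.23e-07) and by -0.66 ± 0.12 in long-term survivors (limma, adjusted p = 1.89e-04).

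The ratio of mitochondrial to nuclear subunits overlapped before and after transplantation and was higher in every long-term survivor library. The mean FPKM of the 13 mitochondrial mRNAs over the mean FPKM of the 69 nuclear ones, a ratio taken within each library and so free of the scaling between libraries, was 20.7, 27.1 and 29.96 (lowest, median, highest) before transplantation. It was 19.4, 27.0 and 35.0 after transplantation and 36.3, 51.1 and 66.4 in long-term survivors. The pre- and post-transplant ranges overlapped for most of their length, while all 8 long-term survivor libraries lay above all 22 others. The ratio does not remove a separate processing run for the long-term survivor libraries, which cannot be told apart from the group. Both parts of the ratio differed between groups: the median over libraries of the nuclear mean was 192, 137 and 113 FPKM and that of the mitochondrial mean 5289, 2923 and 6413 FPKM in the 3 groups.

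In each complex the long-term survivor median was the highest, and the pre- and post-transplant ranges overlapped. For complex I (7 mitochondrial and 36 nuclear subunits) the ratio was 20.3 to 28.8 before, 18.7 to 30.9 after transplantation and 31.5 to 76.1 in long-term survivors. For complex III, with Mt-cyb over 9 nuclear subunits, it was 37.3 to 65.5, 38.4 to 67.6 and 73.9 to 121. For complex IV (3 and 10 subunits) it was 20.1 to 28.9, 17.8 to 35.5 and 34.2 to 52.6, so that the lowest long-term survivor library lay below the highest post-transplant library. For complex V (2 and 14 subunits) it was 14.7 to 23.1, 14.1 to 26.8 and 26.5 to 54.7, again with a small overlap.

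**Figure D5:**
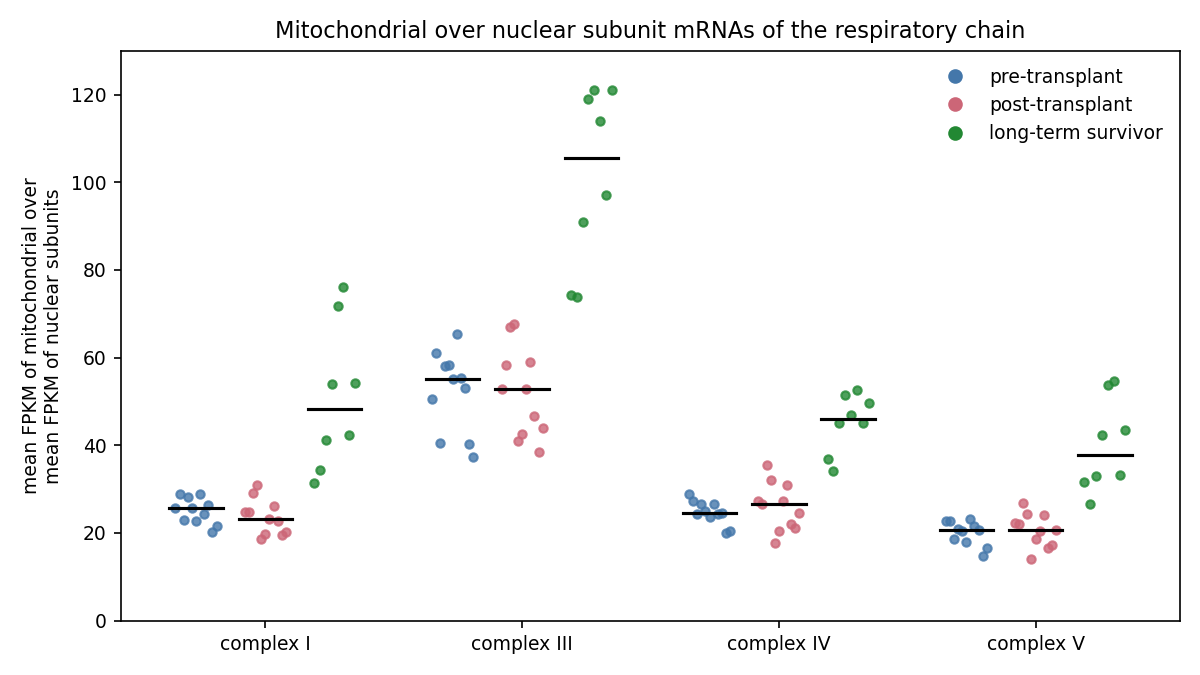
Mean FPKM of mitochondrial over mean FPKM of nuclear subunits (vertical axis) in each library for complexes I, III, IV and V, with 1 point per library and a black line at the group median. Long-term survivor medians are 48.2, 105.3, 46.1 and 37.8, against 25.6, 55.2, 24.6 and 20.6 before transplantation.

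Most nuclear subunit genes are short, and short nuclear genes took fewer reads in 2 of the groups. Nuclear genes under 1000 bases held 8.55% to 9.56% of nuclear reads before transplantation, 6.30% to 8.26% after it and 6.64% to 8.46% in long-term survivors. Long-term survivor replicates 1 and 2 stood at 8.46% and 8.02%, and the others at 6.64% to 6.86%. The same replicates had the lowest ratios of mitochondrial to nuclear subunits of their group, 37.9 and 36.3, against 45.3 to 66.4 in the others. With the 20 nuclear subunits of at least 1000 bases alone, the ratio was 24.5 to 37.3 before transplantation, 24.6 to 45.1 after it and 45.9 to 76.2 in long-term survivors, so the long-term survivor group still lay above the others. Of these 20 genes, 19 were lower in long-term survivors than before transplantation and 0 higher, with a median log2 difference of -0.56. Hepatocyte markers stood near the pre-transplant level in long-term survivors, with a summed FPKM of 61120.4 to 101422 (median 83899) and 1 of 12 lower as deposited but 0 lower and 1 higher with median-of-ratios scaling, while 5 of 5 bile duct markers tested were higher (summed FPKM 19.9 to 135 against 7.55 to 37.2 before transplantation). The part of gene length and of cell types in the ratio was not tested.

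Nuclear genes that copy, transcribe and translate the mitochondrial genome were lower more often than higher in both groups, which turned to higher more often than lower when libraries were scaled by the nuclear respiratory chain genes. The table as a whole turned the same way under that scaling, with 8346 of 11924 genes higher after transplantation and 5212 in long-term survivors. Of 20 genes of mitochondrial DNA replication and maintenance, 14 fell and 1 rose after transplantation, and 14 were lower and 0 higher in long-term survivors than before transplantation. Over all genes, 26.6% were lower after transplantation and 30.8% in long-term survivors. Mpv17, an inner membrane protein whose loss depletes liver mitochondrial DNA, went from 32.5 to 17.95 FPKM (log2 change -0.85 ± 0.11, limma, adjusted p = 6.80e-07) and stood at 15.3 FPKM in long-term survivors (-1.05 ± 0.12, limma, adjusted p = 9.54e-07). Polg, the catalytic subunit of the mitochondrial DNA polymerase, was at 34.5 FPKM before transplantation and 20.6 FPKM in long-term survivors (-0.70 ± 0.13, limma, adjusted p = 2.49e-04). Of 10 transcription genes, 6 fell and 0 rose in each comparison. Polrmt, the polymerase itself, went from 7.45 to 5.40 FPKM (-0.42 ± 0.09, limma, adjusted p = 3.13e-04) and was at 5.47 FPKM in long-term survivors (-0.39 ± 0.10, limma, adjusted p = 0.00342). Tefm, its elongation factor, changed by -0.40 and -0.53 (limma, adjusted p = 0.00171 and 5.63e-04).

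Of 35 genes of mitochondrial RNA processing, modification and turnover, 14 fell after transplantation and 16 were lower in long-term survivors, with 0 higher in either. The lower genes made up 26.6% and 30.8% of all genes. Hsd17b10, a subunit of the nuclease that cuts the 5′ ends of mitochondrial tRNAs, went from 41.4 to 19.8 FPKM (-1.07 ± 0.15, limma, adjusted p = 1.77e-06) and to 16.5 FPKM (-1.28 ± 0.17, limma, adjusted p = 3.06e-06). Of 19 translation factors 13 and 15 were lower, among them the elongation factor Gfm1 at -0.84 and -0.71 (limma, adjusted p = 5.66e-07 and 6.29e-05). Of 16 aminoacyl-tRNA synthetases, which load amino acids onto the mitochondrial tRNAs, 13 and 12 were lower (5 and 7 with nuclear reads as the library size), with Nars2 at -0.43 and -0.54 (limma, adjusted p = 5.33e-06 and 4.88e-06). Neither list had a higher member against the pre-transplant group. With nuclear reads as the library size, 1804 of all 11924 genes were lower after transplantation and 1151 in long-term survivors.

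Of 13 regulators of mitochondrial biogenesis, 3 were higher and 3 lower after transplantation, near the shares over all genes (23.4% and 26.6%). They were 1 higher and 6 lower with quantile normalization, and 8 higher and 1 lower with scaling by the nuclear respiratory chain genes. Of all 11924 genes, 2663 were higher and 3563 lower with the former, and 8346 higher and 590 lower with the latter. Pprc1, a coactivator related to PGC-1, rose by 0.54 ± 0.14 (limma, adjusted p = 0.00181) and Nrf1, a transcription factor of respiratory chain genes, by 0.24 ± 0.08 (limma, adjusted p = 0.00920), a call lost with quantile normalization (0.10, limma, adjusted p = 0.266). Sirt3, the main deacetylase of the matrix, fell by 0.92 on the log2 scale (-0.92 ± 0.15, limma, adjusted p = 8.01e-06), and Ppara, the fatty acid receptor that drives oxidation genes in liver, changed by -0.98 ± 0.28 (limma, adjusted p = 0.00467). In long-term survivors 5 of 13 were lower and 0 higher as deposited, near the share over all genes (30.8% lower). With median-of-ratios scaling 2 of 13 were lower, and 1065 of all 11924 genes. Esrra, a nuclear receptor of respiratory chain genes, was at -0.82 ± 0.14 as deposited (limma, adjusted p = 4.38e-05). Genes of the matrix, the outer membrane and import were lower in 11 of 20 cases after transplantation (4 with quantile normalization) and in 17 of 20 in long-term survivors (10 with median-of-ratios scaling). Of all 11924 genes, 3174 were lower after transplantation (3563 with quantile normalization) and 3675 in long-term survivors (1065 with median-of-ratios scaling). Cs, the citrate synthase often used to gauge mitochondrial mass, was at 31.6 FPKM before transplantation and 31.5 FPKM after it, a log2 difference of -0.01 (limma, adjusted p = 0.956). With scaling by the nuclear respiratory chain genes, Cs was higher after transplantation (0.60, limma, adjusted p = 4.4e-05). In long-term survivors it was at 20.05 FPKM (-0.62 ± 0.08, limma, adjusted p = 1.88e-06).

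The scaling between libraries also moved the counts of these nuclear lists. With the reads of nuclear genes as the library size, the lower members after transplantation numbered 8 of 20 for replication and maintenance, 2 of 10 for transcription, 6 of 35 for RNA processing and 5 of 19 for translation factors. In long-term survivors those numbers were 6, 3, 4 and 4, and with median-of-ratios scaling they were 4, 1, 3 and 4. Of all 11924 genes, 1804 were lower after transplantation and 1151 in long-term survivors with nuclear reads as the library size. With median-of-ratios scaling 1065 were lower in long-term survivors. With libraries scaled by the nuclear respiratory chain genes, 24 of the 35 RNA processing genes were higher and 2 lower after transplantation, and 19 were higher and 1 lower in long-term survivors. Most genes of the table moved this way too: of 11924, 8346 were higher and 590 lower after transplantation. In long-term survivors 5212 were higher and 175 lower. Mpv17 and Hsd17b10 were lower in both comparisons under each of the 4 other scalings. Polrmt did not pass the test in long-term survivors with median-of-ratios scaling (-0.20, limma, adjusted p = 0.158) and was on the other side of 0 with the nuclear respiratory chain genes (0.15, limma, adjusted p = 0.233). With the latter scaling, Polrmt, Polg, Tefm, Nars2 and Ppara did not pass the test after transplantation. In long-term survivors Polg (-0.09, limma, adjusted p = 0.631), Tefm (-0.01, limma, adjusted p = 0.937) and Nars2 (-0.02, limma, adjusted p = 0.866) did not pass it. Nor did Gfm1 (-0.10, limma, adjusted p = 0.358), Esrra and Cs there.

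The nuclear genome holds copies of parts of the mitochondrial genome, and reads that match both can be counted at either place or left out. The deposited table holds an unannotated gene model on chromosome 20 (20:19483976-19485845 in the table's coordinates, 1530 bases) whose deposited description names a domain of proton-conducting membrane transporters, the family of Mt-nd2, Mt-nd4 and Mt-nd5. It held 2179, 14511 and 16062 reads (lowest, median, highest) before transplantation, against 5012, 7651 and 12653 for Mt-nd4. After transplantation it held 4820, 10216 and 16587 reads, against 3769, 5138 and 7407 for Mt-nd4. The library with the fewest reads on the model was pre-transplant replicate 1, which had the highest Mt-nd4 of its group (561 FPKM) and the lowest ratio of Mt-nd4l to Mt-nd4 of all libraries (4.78). No sequence of the model was used here, so whether reads of Mt-nd4 were counted there was not tested. Its values in long-term survivors appear to come from a separate processing run and are not compared.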

How the data were processed

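The authors deposited 1 table of FPKM per gene, a unit inferred from their steps, as no header states it. HISAT2 2.0.5 and the builds mm10 and Rnor_6.0 are listed in the submitters' processing notes. The counting program and annotation release are not named in the sources used here. FPKM times gene length gave whole reads for 100% of Ensembl genes (within 0.02 reads, up to 5000 reads), from which reads and library sizes were recovered; the intervals of such reads would cover counting error only. Of 32 columns of values, 2 that share 1 header were not used.

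Tests used limma 3.58.1 in R 4.3.3 (empirical Bayes with trend and robust fit, two-sided) on log2(FPKM + 1) in 1 fit of 3 groups, over 11924 genes (1 FPKM or more in 8 or more libraries), with Benjamini-Hochberg adjustment over all and a threshold of 0.05. On this scale, differences of low genes come out smaller than they are. The fit was tested on simulated data. The members, the gene lists and the alternatives were chosen with earlier results of these data known. The text names all mitochondrial mRNAs and rRNAs, the tRNAs with most reads, and from each list at most 4 genes per comparison, those lowest in adjusted p. Alternatives were another pseudocount, no filter, 4 other scalings, voom on recovered reads, 2 groups only, array weights, no trend, averaged pairs, a block on title sets and left-out libraries.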

Additional observations from a re-analysis of the deposited data

How the results depend on the processing

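The calls on the 15 mitochondrial mRNAs and rRNAs (13 lower after transplantation, 3 higher in long-term survivors than before transplantation, 14 higher than after it) depended most on scaling. With libraries scaled by the nuclear respiratory chain genes, 0 of 15 and 2 tRNA genes were lower after transplantation, with Mt-co1, Mt-atp6 and Mt-co3 at 0.04, 0.01 and 0.12. That scaling gave 8346 of all 11924 genes higher and 590 lower there, with a median of 0.48. Of the 72 nuclear subunits, 9 were then higher and 7 lower. As these genes set the scale, their counts under it, here and in long-term survivors, are no test. In long-term survivors 15 of 15 were higher and 3 tRNA genes lower than before transplantation, Mt-nd3 and Mt-atp8 stood at 0.46 and 0.56, and nuclear subunits were 10 higher and 16 lower, with 11 higher against post-transplant livers. Of all 11924 genes, 5212 were then higher and 175 lower in long-term survivors than before transplantation, with a median of 0.32. Under every other setting tried, 12 to 14 of 15 were lower after transplantation and 13 to 15 higher in long-term survivors than after it.

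Quantile normalization gave 1 higher and 44 lower nuclear subunits after transplantation (69 lower as deposited). Against pre-transplant livers it gave 6 of 15 higher and 38 nuclear subunits lower in long-term survivors, and against post-transplant livers 9 nuclear subunits and 2 tRNA genes higher. Of all 11924 genes it gave 906 higher and 1067 lower in the former comparison, and 2903 higher and 2445 lower in the latter. Median-of-ratios scaling gave 8 of 15 higher, 3 tRNA genes lower and 37 nuclear subunits lower against pre-transplant livers, and 4 tRNA genes and 20 nuclear subunits higher with 1 lower against post-transplant livers. Of all 11924 genes it gave 1022 higher and 1065 lower in the former comparison, and 2469 higher and 2575 lower in the latter. With nuclear reads as library size 9 of 15 were higher than before transplantation, with 2 groups only 5, and with array weights 8. Of all 11924 genes, 469, 653 and 950 were higher in these settings, in that order. The cause was not tested.

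Against post-transplant livers, where 3 nuclear subunits were higher and 13 lower and 1 tRNA gene was higher and 1 lower, the counts were small and moved. Nuclear subunits were 5 lower with 2 groups only, 3 lower with pairs averaged, 5 higher with array weights and 5 without trend and robust fit, and 6 higher when replicates 9 (after) and u2 (before transplantation) were left out. Higher tRNA genes were 2 with array weights, no filter or voom, which gave 0 lower. With pairs averaged 3 tRNA genes were lower in long-term survivors than before transplantation (6 as deposited). The share of reads without the 10 most abundant nuclear genes was 7.97%, 5.82% and 10.55% in the 3 groups. The ratio to nuclear subunits of at least 1000 bases, chosen after seeing the data, had medians of 34.5, 34.2 and 59.7.

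Leaving out 1 library at a time gave 13 to 14 of 15 lower after transplantation, 2 to 5 higher in long-term survivors than before it (5 without long-term survivor replicate 3) and 14 higher than after it. For tRNA genes it gave 8 to 9 and 4 to 7 lower against pre-transplant livers, and 1 to 2 higher against post-transplant livers. For nuclear subunits it gave 67 to 70 and 68 to 69 lower against pre-transplant livers. Against post-transplant livers it gave 2 to 6 higher (6 without post-transplant replicate 4, 8 or 9 or long-term survivor replicate 3 or 7) and 6 to 17 lower (6 without long-term survivor replicate 4, 5 or 6, 17 without long-term survivor replicate 1). No paired analysis was possible because replicate numbers are in accession order and titles are unique. A block on the title sets gave 13 of 15, 9 tRNA genes and 68 nuclear subunits lower after transplantation. Depth limited the tRNA genes, 17 of which had at most 30 reads in every library.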
